A study of Homo sapiens with 6 samples.

Results

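The genes described here are 10 heat shock chaperone and co-chaperone genes, taken by name from a table of 61228 genes: HSP90AA1, HSPA8, HSPA1A, HSPA1B, HSPH1, DNAJB1, BAG3, HSPB1, HSPD1 and HSPE1. All 10 were found, and all 10 passed the filter on low counts, as did 14704 genes in all. The cells were MDA-MB-231, a human line of triple-negative breast cancer, and their polyadenylated RNA was sequenced after culture inside gels of collagen I, at either of 2 concentrations that the labels do not tie to libraries. The control group (3 libraries) had been nucleofected, that is, electroporated, with Cas9 and control guide RNAs. The knockout group (KO, 3 libraries) had been nucleofected with Cas9 and guide RNAs for ETV1, ETV4 and ETV5, which encode related ETS transcription factors; the titles of these libraries name ETV4 alone. All KO library names carry c39, a tag left unexplained in the labels, and whether these libraries stem from 1 clone is not given in the sources used here. Before lysis, the gels of both groups were digested with collagenase at a warm temperature and the cells were pelleted and frozen. The comparison addressed here is which of these chaperone transcripts differed between KO and control cells.

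Heat shock proteins bind unfolded or partly folded proteins and help them fold, keep them from aggregating or pass them on for degradation. The cytosolic HSP70 proteins work in an ATP-driven cycle: J-domain proteins such as DNAJB1 deliver clients and trigger hydrolysis, exchange factors such as HSPH1 and BAG3 release the nucleotide, and HSP90 takes over many signalling proteins for late folding steps. When unfolded proteins accumulate, the factor HSF1 forms trimers and binds heat shock elements, inverted repeats of the letters GAA in the promoters of these genes. Cancer cells commonly hold high levels of these chaperones.

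Heat shock elements were looked for in promoter windows of RefSeq (GRCh38.p14), which run from 250 bases before to 50 bases after an annotated start. All 10 genes had a window, 14 windows in all. A 3-unit element was written as GAA, TTC and GAA with NN between neighbouring units, and the 2-unit elements, which can lie inside a 3-unit element, were written GAANNTTC and TTCNNGAA; both strands were read. The stretches that held a match upstream of the start follow, 5′ to 3′ on the gene's strand with the matching letters in capitals, because the genes differ in which kind they hold and are set beside these stretches again after the values. Stretches that other annotated transcripts cover as untranslated sequence were limited to 30 bases.
HSP90AA1, chr14:102087104-102087133, minus strand: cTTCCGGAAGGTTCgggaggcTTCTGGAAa
HSPD1, chr2:197500061-197500090, minus strand: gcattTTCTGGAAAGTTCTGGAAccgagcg
HSPA8 distal, chr11:123062346-123062375, minus strand: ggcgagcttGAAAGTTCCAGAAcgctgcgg
HSPA8 proximal, chr11:123062171-123062200, minus strand: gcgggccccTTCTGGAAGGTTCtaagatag
DNAJB1, chr19:14518417-14518494, minus strand: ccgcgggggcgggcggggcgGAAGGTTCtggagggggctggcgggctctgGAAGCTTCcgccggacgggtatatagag
HSPA1A, chr6:31815417-31815464, plus strand: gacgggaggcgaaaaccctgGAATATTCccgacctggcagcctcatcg
HSPA1B, chr6:31827613-31827660, plus strand: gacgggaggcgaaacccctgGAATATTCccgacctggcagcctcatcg
HSPB1, chr7:76302471-76302518, plus strand: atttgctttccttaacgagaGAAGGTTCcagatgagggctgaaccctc

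HSP90AA1, HSPD1 and HSPA8 held a 3-unit match, which 0.49% of all 35116 windows held. HSPA1A, HSPA1B, HSPB1 and DNAJB1 held only a 2-unit match. A 2-unit match of either kind was present in 13.5% of all windows. Only exact letters were counted. In each of these genes a printed match is followed, after NN, by gac, gat or gag, which differ from GAA by 1 letter. No match was found in the windows of HSPH1, BAG3 and HSPE1. The windows cover only the starts that RefSeq lists. The HSPA1A and HSPA1B stretches differed at 1 of 48 bases. The ETS core CCGGAA, which was present in 17.2% of windows on either strand, matched in HSP90AA1, where it lies inside the heat shock element, and in HSPA1B, where it spans the annotated start. A match is a string of letters and not a measured binding site.

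Totals ran from 18042601 to 23232770 counts per library. CPM are counts scaled to library size with edgeR's TMM factors, and libraries are given in the order of replicates 1, 2 and 3. Of the targeted genes, ETV1 stood at 218, 213 and 238 CPM in control libraries and 135, 137 and 155 CPM in KO libraries, and ETV4 at 95.3, 94.9 and 91.4 against 65.5, 61.5 and 64.0 CPM; both fell (log2 changes -0.65 and -0.56, adjusted p = 0.00125 and 6.12e-04 in edgeR). ETV5 RNA stood at 117, 108 and 112 against 114, 113 and 112 CPM (0.01, adjusted p = 0.932 in edgeR, and -0.02 without control replicate 2), so its level does not tell the groups apart, and the libraries are called KO here as they were labelled. In both groups replicate 3 stood apart from replicates 1 and 2, with higher scores on the first and lower scores on the second principal component (39.1% and 36.6% of the variance).

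The 10 genes did not move together. HSP90AA1, HSPH1 and HSPD1 rose in KO cells, by 28.7%, 25.7% and 20.4%, while BAG3 and DNAJB1 fell by 22.96% and 14.3% (edgeR's quasi-likelihood test, adjusted p under 0.05 over all genes tested, n = 3 per group). The other 5 genes (HSPA8, HSPE1, HSPA1A, HSPA1B and HSPB1) did not pass. So 3 of 10 were called higher, where 3.28% of all tested genes were, and 2 of 10 were called lower, where 6.42% were. In either direction the share over all genes was 9.70%. The same 5 genes were those whose KO and control libraries did not overlap, 3 higher and 2 lower, where 31.7% of all tested genes did not overlap (14.9% higher and 16.8% lower). The median log2 change of the 10 was 0.05, against 0.004 over all genes. The replicate 3 libraries of both groups deviated together (correlation of their deviations from the group means 0.83), whereas control replicate 1 followed KO replicate 2 (0.59) as closely as KO replicate 1 (0.55), and control replicate 2 followed KO replicate 1 (0.58) more closely than KO replicate 2 (0.45). The data thus set replicate 3 apart and do not tell the pairs numbered 1 and 2 from each other. With replicate number as a block all 10 genes passed, 5 higher and 5 lower; that fit called 33.9% of all genes, 17.2% higher and 16.7% lower. Each gene had the same sign in both fits. With each number once per group the block hardly moves the fitted changes, so this is no separate check. Without both replicate 3 libraries 4 of the 10 were higher (11.7% of all genes) and 3 lower (13.7%). The group comparison depended on single libraries: with 1 library left out, between 0 and 4 of the 10 were higher and between 0 and 1 lower.

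**Figure D1:**
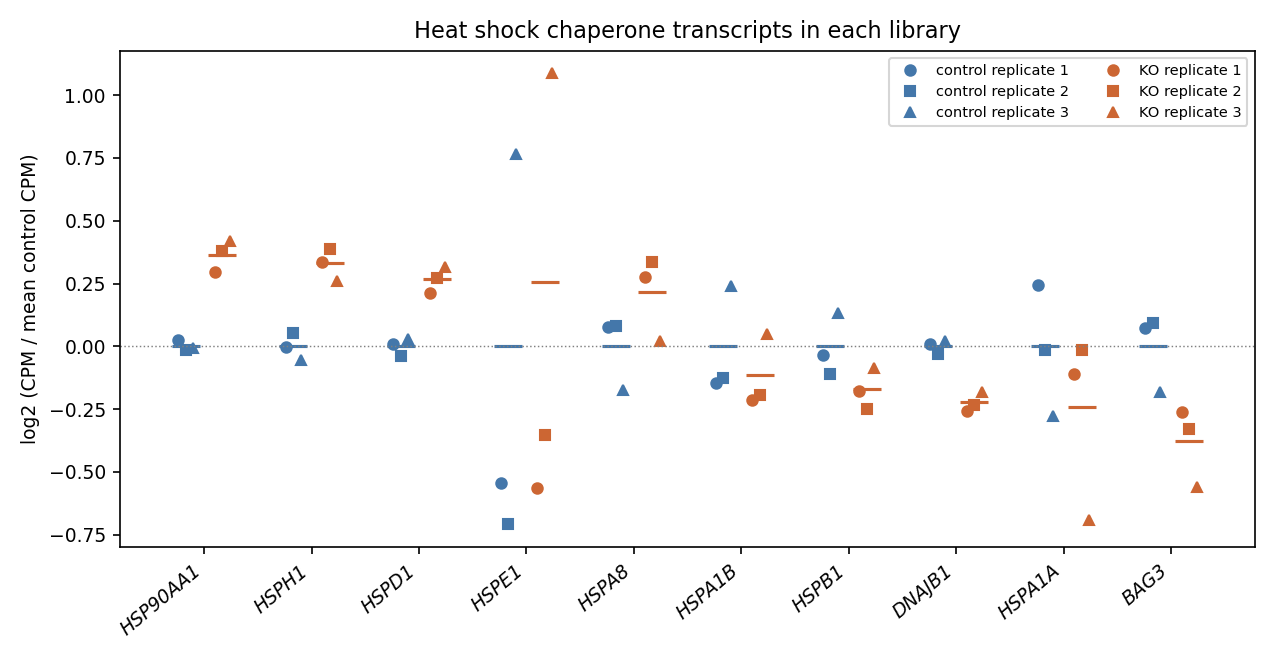
Each point is 1 library: log2 of its CPM over the mean control CPM of that gene, with control libraries in blue, KO libraries in orange, the replicate number as the symbol and the group mean as a bar. The KO points of HSP90AA1, HSPH1 and HSPD1 lie above all control points and those of DNAJB1 and BAG3 below them, while replicate 3 of both groups stands far above the other libraries for HSPE1.

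HSP90AA1 (ENSG00000080824, GRCh38 chromosome 14, 102080738 to 102139699, minus strand) encodes the stress-inducible cytosolic HSP90, the most abundant of these transcripts. It measured 2526, 2457 and 2470 CPM in the control libraries and 3047, 3229 and 3318 CPM in the KO libraries. Every KO library lay above every control library. The means were 2484 ± 36.9 and 3198 ± 138 CPM (SD, n = 3), a log2 change of 0.36 (SE 0.06, adjusted p = 0.00864 in edgeR). Without control replicate 2 it did not pass (edgeR adjusted p = 0.0649). Its constitutive paralogue HSP90AB1 measured 2940 and 3231 CPM on average, a log2 change of 0.14 (SE 0.06) that passed only with the block and without both replicate 3 libraries among the settings tried (edgeR adjusted p = 0.197 in the group comparison and 5.49e-04 with the block). The ratio of HSP90AA1 to HSP90AB1 in CPM was 0.844, 0.847 and 0.844 in control libraries and 0.973, 0.990 and 1.01 in KO libraries, so the balance of these HSP90 transcripts lay nearer to the inducible form in every KO library.

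HSPH1 (ENSG00000120694, chromosome 13, 31134974 to 31162388, minus strand) encodes HSP110, a large HSP70 relative that acts as an exchange factor and holds unfolded proteins. Its CPM were 184, 192 and 178 in control and 233, 242 and 221 in KO libraries. The groups did not overlap, and the difference of their means exceeded the spread within either. The log2 fold change was 0.33 (SE 0.06, adjusted p = 0.0131 in edgeR). It was not called when any of replicates 1 and 2 of either group was left out, where the edgeR adjusted p was between 0.0509 and 0.0703.

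HSPD1 (ENSG00000144381, chromosome 2, 197486581 to 197516737, minus strand) encodes HSP60, the barrel-shaped chaperonin of the mitochondrial matrix. It gave 469, 454 and 476 CPM in control libraries and 541, 563 and 580 CPM in KO libraries. All KO values were above all control values, with a log2 change of 0.27 (SE 0.06, adjusted p = 0.0253 in edgeR). Leaving out any 1 of replicates 1 and 2 of either group took the edgeR adjusted p to between 0.063 and 0.137.

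Its partner HSPE1 (ENSG00000115541, chromosome 2, 197499994 to 197503457, plus strand) encodes HSP10, the lid of the HSP60 barrel, and lies on the opposite strand, within the span that the annotation gives HSPD1. The 3-unit match of the HSPD1 window ended 293 bases before the HSPE1 start in RefSeq, outside the HSPE1 window. HSPE1 stood at 38.4, 34.2 and 95.1 CPM in control libraries and at 37.9, 43.7 and 119 CPM in KO libraries. The spread within each group was much larger than the difference between groups: the replicate 3 libraries were 2.62-fold (control) and 2.91-fold (KO) above the mean of replicates 1 and 2. The fitted log2 fold change was 0.25 (SE 0.66, adjusted p = 0.868 in edgeR). With the block it was 0.23 (SE 0.06, adjusted p = 0.00232 in edgeR), and KO exceeded control by log2 0.35 and 0.32 in the pairs numbered 2 and 3 and by -0.02 in the pair numbered 1. Without KO replicate 3 the sign turned (-0.45, edgeR adjusted p = 0.712), as it did without control replicate 2 (-0.0032, edgeR adjusted p = 0.999). The ratio of HSPD1 to HSPE1 in CPM ran at 12.2, 13.3 and 5.01 in control and 14.3, 12.9 and 4.89 in KO libraries. In GENCODE release 29, 23.9% of HSPE1 exon bases are shared with HSPD1 or with the readthrough gene HSPE1-MOB4, to which the table gives at most 5 counts in a library; how reads in shared exons were counted is not given in the sources used here.

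**Figure D2:**
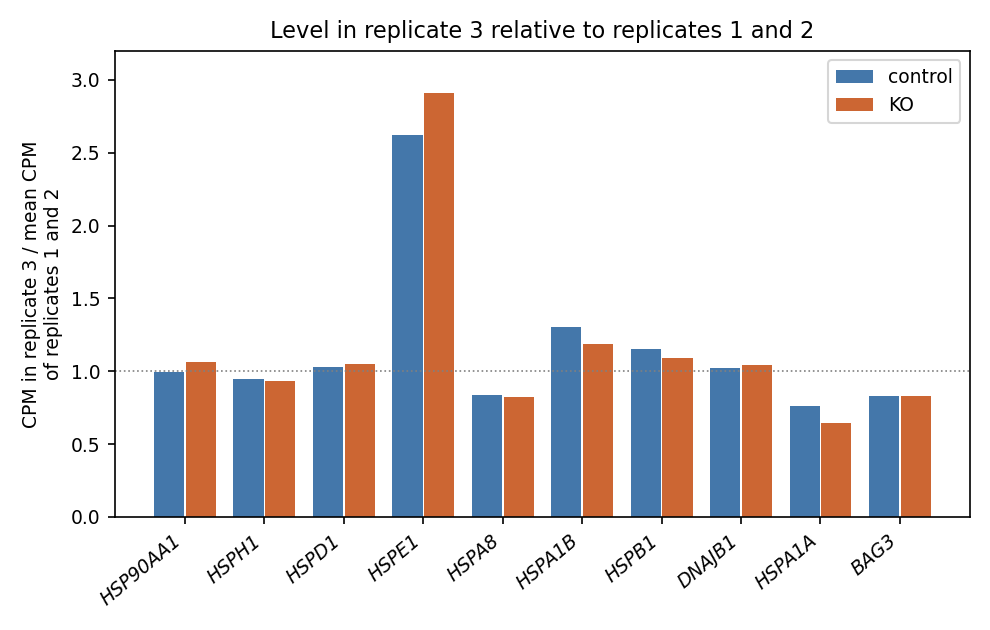
Bars give the CPM of replicate 3 divided by the mean CPM of replicates 1 and 2, for control (blue) and KO (orange), with a dotted line at 1. HSPE1 stands at 2.62 and 2.91, while HSPA1A (0.760 and 0.646) and BAG3 (0.831 and 0.833) were lower in replicate 3.

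BAG3 (ENSG00000151929, chromosome 10, 119651370 to 119677819, plus strand) encodes a co-chaperone that links HSP70 to selective autophagy of damaged proteins and of the cytoskeleton under tension. It stood at 183, 186 and 153 CPM in control libraries and at 145, 139 and 118 CPM in KO libraries. The lowest control library, replicate 3, was still above the highest KO library. The means were 174 ± 18.1 and 134 ± 14.1 CPM (SD, n = 3), a log2 change of -0.38 (SE 0.10, adjusted p = 0.0472 in edgeR), the largest decrease of the 10 genes. It passed without control replicate 3, but leaving out any other single library ended the call (edgeR adjusted p between 0.0643 and 0.177). Without both replicate 3 libraries the log2 fold change was -0.38 (edgeR adjusted p = 8.61e-07).

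DNAJB1 (ENSG00000132002, chromosome 19, 14514770 to 14529770, minus strand) encodes HSP40, the main stress-inducible J-domain partner of HSP70. Its CPM were 321, 313 and 324 in control and 268, 272 and 282 in KO libraries. The groups did not overlap, and replicates within a group were close. The log2 fold change was -0.22 (SE 0.06, adjusted p = 0.0410 in edgeR). It passed without KO replicate 3, but leaving out any other single library ended the call (edgeR adjusted p between 0.0738 and 0.177), as did dropping the filter on low counts (edgeR adjusted p = 0.0533). DNAJA1, another J-domain partner of HSP70, rose from 346, 342 and 356 to 409, 431 and 440 CPM (log2 change 0.29, SE 0.06, adjusted p = 0.0171 in edgeR; up to 0.0976 with 1 library left out). The ratio of DNAJA1 to DNAJB1 was 1.08, 1.09 and 1.10 in control and 1.53, 1.58 and 1.56 in KO libraries. The ratio of HSPH1 to BAG3, both exchange factors for HSP70, was 1.01, 1.03 and 1.16 in control and 1.60, 1.74 and 1.87 in KO libraries. These ratios were chosen after the values had been seen and carry no test.

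**Figure D3:**
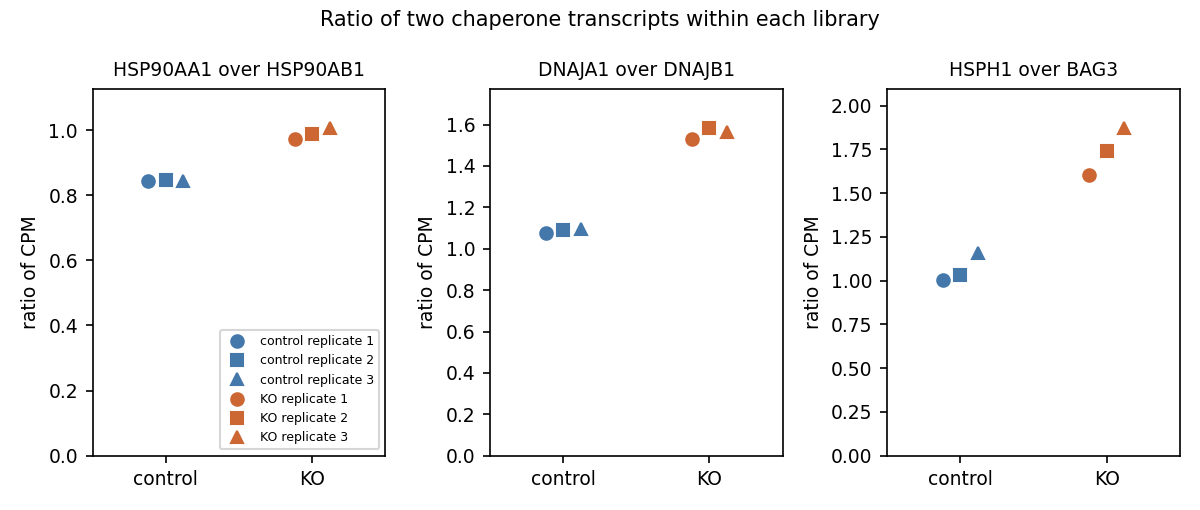
Each panel plots the ratio of 2 CPM values within a library (vertical axis, starting at 0) for control (blue) and KO (orange) libraries, with the replicate number as the symbol. HSP90AA1 over HSP90AB1 ran from 0.844 to 0.847 in control and from 0.973 to 1.01 in KO, and in the other panels every KO library also lies above every control library.

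The HSP70 genes themselves did not pass in the group comparison. HSPA8 (ENSG00000109971, chromosome 11, 123057489 to 123063230, minus strand), the constitutive HSP70 that also uncoats clathrin vesicles, stood at 1467, 1470 and 1232 CPM in control libraries and at 1681, 1752 and 1409 CPM in KO libraries. KO replicate 3 lay below the 2 highest control libraries, so the groups overlapped, although in every same-numbered pair KO was the higher one. The log2 fold change was 0.22 (SE 0.10, adjusted p = 0.230 in edgeR), and with the block 0.21 (SE 0.03, adjusted p = 2.89e-07 in edgeR). It also passed without KO replicate 3 (edgeR adjusted p = 0.033) and without both replicate 3 libraries (edgeR adjusted p = 1.12e-04).

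HSPA1A (ENSG00000204389, chromosome 6, 31815464 to 31817946, plus strand) and HSPA1B (ENSG00000204388, chromosome 6, 31827735 to 31830255, plus strand) are intronless neighbours that encode the same stress-inducible HSP70. HSPA1A stood at 19.99, 16.7 and 13.9 CPM in control libraries and at 15.6, 16.7 and 10.5 CPM in KO libraries. HSPA1B stood at 86.4, 87.5 and 113 CPM in control libraries and at 82.3, 83.5 and 99.0 CPM in KO libraries. Both sets of values overlapped between groups. The log2 changes were -0.24 (SE 0.19, 95% interval -0.67 to 0.19, adjusted p = 0.488 in edgeR) and -0.12 (SE 0.12, 95% interval -0.38 to 0.15, adjusted p = 0.596 in edgeR); with the block they were -0.25 (edgeR adjusted p = 0.0318) and -0.11 (edgeR adjusted p = 0.0470). Without control replicate 3 the HSPA1B value was 0.02. Replicate 3 was low for HSPA1A and high for HSPA1B in both groups, so HSPA1A took 18.8%, 16.02% and 11.01% of the summed counts of both genes in control and 15.97%, 16.7% and 9.56% in KO libraries. Of all 100-base windows in annotated HSPA1A transcripts, 67.3% occur letter for letter in HSPA1B, and 36.5% of HSPA1B exon bases are shared with the annotated gene AL671762.1, so the division of reads is uncertain. Summed, they came to 112 ± 12.4 CPM in control libraries and 102.5 ± 6.08 CPM in KO (SD, n = 3), a log2 change of -0.13 (SE 0.09, adjusted p = 0.381 in edgeR). How reads that match both genes were counted is not given. If they were dropped, the sum misses them too.

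HSPB1 (ENSG00000106211, chromosome 7, 76302544 to 76304295, plus strand) encodes HSP27, a small heat shock protein that forms large oligomers, holds unfolded proteins without ATP and binds actin filaments. It stood at 146, 138 and 164 CPM in control libraries and at 132, 125 and 141 CPM in KO libraries. KO replicate 3 lay above the lowest control library, while KO was the lower library in each same-numbered pair. The log2 fold change was -0.17 (SE 0.08, 95% interval -0.35 to 0.01, adjusted p = 0.219 in edgeR), and with the block -0.17 (SE 0.04, adjusted p = 5.00e-04 in edgeR). It also passed without both replicate 3 libraries (edgeR adjusted p = 0.0331).

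**Figure D4:**
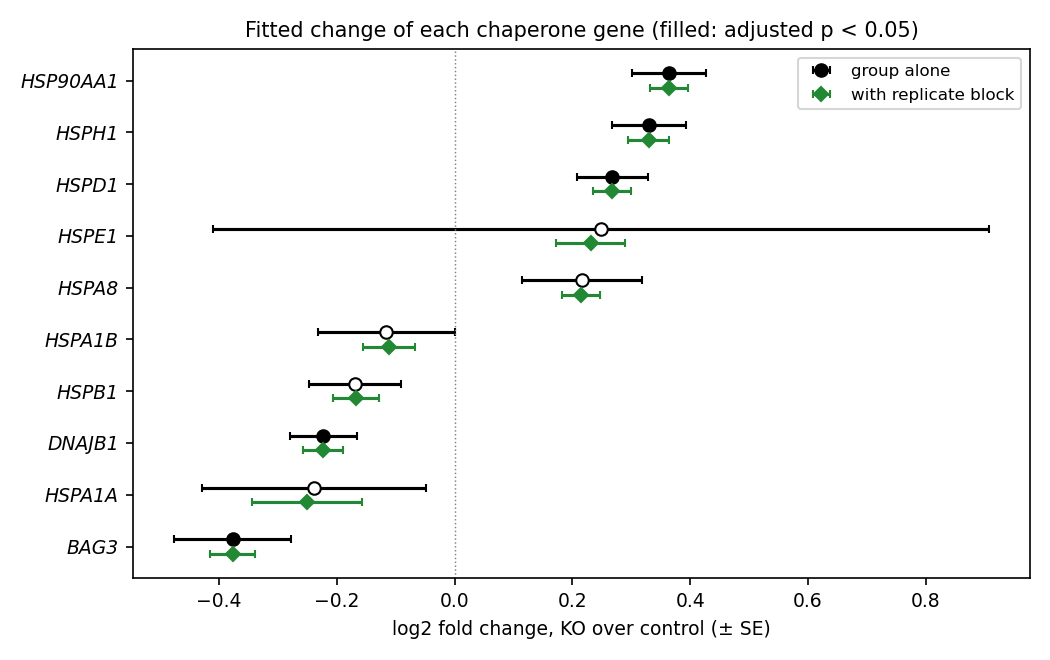
Points give the fitted log2 change of KO over control with bars of 1 SE, from the fit on group alone (black circles) and the fit with replicate as a block (green diamonds); filled symbols have an adjusted p under 0.05. The 2 fits place each gene at nearly the same value and differ in the width of the bars, most of all for HSPE1 (SE 0.66 and 0.06).

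The 10 genes together, most of whose counts came from HSP90AA1 and HSPA8, took a larger share of all counts in every KO library than in any control library: 0.538%, 0.528% and 0.528% in control libraries and 0.616%, 0.647% and 0.634% in KO libraries. Per kilobase of annotated exon, the control levels ran from 473 ± 6.99 CPM for HSP90AA1 over 287 ± 28.2 for HSPA8 and 110 ± 2.72 for HSPD1 to 22.0 ± 0.83 for HSPH1 and 6.80 ± 1.22 for HSPA1A (SD, n = 3). Between them, HSPB1 (91.2 ± 8.02) and DNAJB1 (87.1 ± 1.59) did not differ beyond their spread, BAG3 lay at 63.3 ± 6.57, and HSPA1B (37.9 ± 5.90) and HSPE1 (28.3 ± 17.2) overlapped. The order of the means was the same in KO libraries. HSPE1 stood above HSPH1 only through replicate 3. In replicates 1 and 2, HSPE1 had 19.41 and 17.3 against 21.94 and 22.84 for HSPH1 in control libraries. In KO libraries the values were 19.15 and 22.11 against 27.76 and 28.8. HSPH1 has long alternative exons in the annotation (8.39 kb in all), which lowers its level per kilobase. HSPA1A and HSPA1B share most of their sequence, so their levels per kilobase are too low if shared reads were not counted.

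Set beside the promoter stretches, the 3 genes with an exact 3-unit match (HSP90AA1, HSPD1 and HSPA8) had positive log2 fold changes. The 4 with only an exact 2-unit match (DNAJB1, HSPA1A, HSPA1B and HSPB1) had negative ones. The division rests on exact letters, as all 4 hold 3 units when 1 letter may differ. Of these 7, HSP90AA1 and HSPD1 rose and DNAJB1 fell in the group comparison. HSPA8, HSPA1A, HSPA1B and HSPB1 did not pass, and HSPA1B had a value of 0.02 without control replicate 3. The HSPA1A and HSPA1B stretches differed at 1 of 48 bases, so these genes are not independent cases. The 3 genes with no match in a window went both ways: HSPH1 rose (0.33), BAG3 fell (-0.38, the largest decrease of the 10) and HSPE1 had 0.25 without passing. For HSPE1 this depends on the window length, as the HSPD1 match lies 293 bases before the HSPE1 start. Over the whole table, 53 tested genes had an exact 3-unit match in a RefSeq window. Of them 7 (13.2%) were called higher and 3 (5.66%) lower, with a median log2 change of 0.06. The 53 include HSP90AA1, HSPD1 and HSPA8, and the 7 include HSP90AA1 and HSPD1. These shares are therefore not independent of the values above. Among all 10757 tested genes with a window, 3.63% were called higher and 6.70% lower, with a median of 0.01. Besides HSP90AA1 and HSPD1, the genes called higher were DNAJA1, CHORDC1, HYPK, MGA and ABHD3, and those called lower were PAPPA2, ZNF83 and MANCR. Genes with only an exact 2-unit match (1415 tested) were near the background, with 4.24% called higher and 7.28% lower. Among genes with the ETS core (3732 tested), 3.38% were called higher and 4.58% lower, with a median log2 change of 0.03. Genes were sorted here after their values had been seen, and the difference between these shares was not tested.

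The factors that drive heat shock genes did not pass the test. HSF1 stood at 157, 152 and 144 CPM in control libraries and at 165, 155 and 143 CPM in KO libraries (log2 change 0.03, SE 0.07, adjusted p = 0.826 in edgeR; the sign turned without control replicate 3 or KO replicate 1). Its inhibitor-like binding protein HSBP1 had a log2 change of -0.06 (SE 0.10, adjusted p = 0.777 in edgeR; 0.06 without control replicate 3). None of the 5 tested genes of this group passed in the group comparison or in DESeq2, and 1 had an unadjusted p under 0.05, as 25.4% of all tested genes did. In edgeR 1 was called lower without a filter on low counts and 1 with the block, the latter being HSF4 (edgeR adjusted p = 0.00328), named here after its value was seen. The block called 16.7% of all genes lower. HSF4 stood at 18.48, 20.25 and 24.49 CPM in control and 16.28, 10.23 and 17.72 CPM in KO libraries. Its log2 change was -0.52 (SE 0.20, adjusted p = 0.142 in edgeR). These groups did not overlap, as for 16.8% of all tested genes in the lower direction. HSPA6, an HSP70 gene that is nearly silent without stress, had between 5 and 15 counts per library. The small heat shock genes other than HSPB1 were all below the filter: CRYAB had at most 2 counts and HSPB8 at most 6 in a library.

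Other genes that HSF1 is known to induce had mostly positive values. Of 19 tested, 2 rose, 1 fell and 16 did not pass, where 3.28% of all tested genes were called higher and 6.42% lower. A positive log2 fold change was seen in 16, and the median was 0.14. Among all tested genes with a promoter window, 52.1% had a positive value. With the block, 12 were higher and 2 lower, where that fit called 17.2% of all genes higher and 16.7% lower. With 1 library left out at most 3 were higher and 0 lower. CHORDC1, an HSP90 co-chaperone, went from 54.8, 57.6 and 60.0 to 68.2, 71.7 and 77.4 CPM (log2 change 0.33, SE 0.07, adjusted p = 0.0202 in edgeR), and was the one called higher beside DNAJA1. It was not called without control replicate 1 or 2 or KO replicate 2 (edgeR adjusted p between 0.063 and 0.0964). HSPA1L, a testis-type HSP70 gene that adjoins HSPA1A on the other strand, fell from 2.45 ± 0.28 to 1.36 ± 0.23 CPM (SD, n = 3; log2 fold change -0.85, SE 0.23, adjusted p = 0.0482 in edgeR). It did not pass with any single library left out (edgeR adjusted p between 0.0794 and 0.164) nor in DESeq2 (adjusted p = 0.0774).

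Among HSP90AB1 and the co-chaperones of HSP90, 2 of 17 rose and 15 did not pass, with a median of 0.14. Over all tested genes 3.28% were called higher and 6.42% lower. With the block 13 were higher and 1 lower, where that fit called 17.2% of all genes higher and 16.7% lower. Without both replicate 3 libraries 9 were higher, where 11.7% of all genes were. CHORDC1, HSP90AB1, AHSA1, FKBP4, STIP1 and PPID also belong to the list of genes induced by HSF1. The 2 lists are therefore not separate evidence, and CHORDC1 is counted as higher in both. FKBP5, a peptidyl-prolyl isomerase that binds steroid receptor complexes of HSP90, had the largest change, from 90.5, 83.0 and 95.9 to 118, 121.7 and 122.6 CPM (log2 change 0.43, SE 0.07, adjusted p = 0.00496 in edgeR), and it passed in each of the 6 fits with 1 library left out. Of 25 other J-domain genes, DNAJA1 and DNAJC9, a histone chaperone, rose and 23 did not pass; DNAJC9 had a log2 change of 0.30 (SE 0.06, adjusted p = 0.020 in edgeR), was not called without any 1 of replicates 1 and 2 of either group (up to 0.0851), and the block gave 6 higher and 3 lower in the list. A list of 9 genes held other HSP70 co-chaperones and SQSTM1, which encodes the autophagy receptor p62 and not an HSP70 co-chaperone. None of the 9 passed in the group comparison, SQSTM1 (log2 change 0.25, edgeR adjusted p = 0.114) and BAG6 (-0.04, edgeR adjusted p = 0.756, and 0.0065 without KO replicate 3) among them. DESeq2 also called 0 and the unfiltered fit called 1 higher. An unadjusted p under 0.05 was seen in 4, where 25.4% of all tested genes had one, and 6 were higher with the block. Of 7 other HSP70 and HSP110 genes, HSPA1L fell and 6 did not pass.

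TRiC is the cytosolic chaperonin that folds actin and tubulin, and prefoldin is its partner. Of their subunits, 13 of 14 had a positive log2 change, with a median of 0.19, but none passed in the group comparison. Among all tested genes with a promoter window, 52.1% had a positive value. PFDN5, with the highest value (0.94), was scarce, at 0.21 to 1.09 CPM per library. CCT5 (0.21, edgeR adjusted p = 0.146) and CCT6A (0.22, edgeR adjusted p = 0.0617) were the most abundant. The block called 11 of the 14 higher, where it called 17.2% of all genes higher and 16.7% lower. The fit without both replicate 3 libraries called 10 higher, where 11.7% of all genes were. The fit without a filter on low counts called 1 and DESeq2 2. In the group comparison 4 of 14 had an unadjusted p under 0.05, near the 25.4% over all genes. Of 13 mitochondrial chaperones and proteases none passed (median 0.07; 3 with an unadjusted p under 0.05, 1 called by DESeq2), with mortalin, HSPA9, the HSP70 of the mitochondrial matrix, just outside the threshold (log2 change 0.23, SE 0.06, adjusted p = 0.0519 in edgeR) and YME1L1 at -0.06 (edgeR adjusted p = 0.628). HSPA9 passed with RLE factors, without a filter, without KO replicate 3 and without both replicate 3 libraries, with DESeq2 (adjusted p = 0.00814) and with the block (edgeR adjusted p = 5.29e-08). Of 16 chaperones of the endoplasmic reticulum none passed (median 0.05; 5 with an unadjusted p under 0.05, 1 called by DESeq2), including the lectin chaperones CALR (0.10, edgeR adjusted p = 0.443) and CANX (0.06, edgeR adjusted p = 0.580); 6 were higher and 2 lower with the block.

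**Figure D5:**
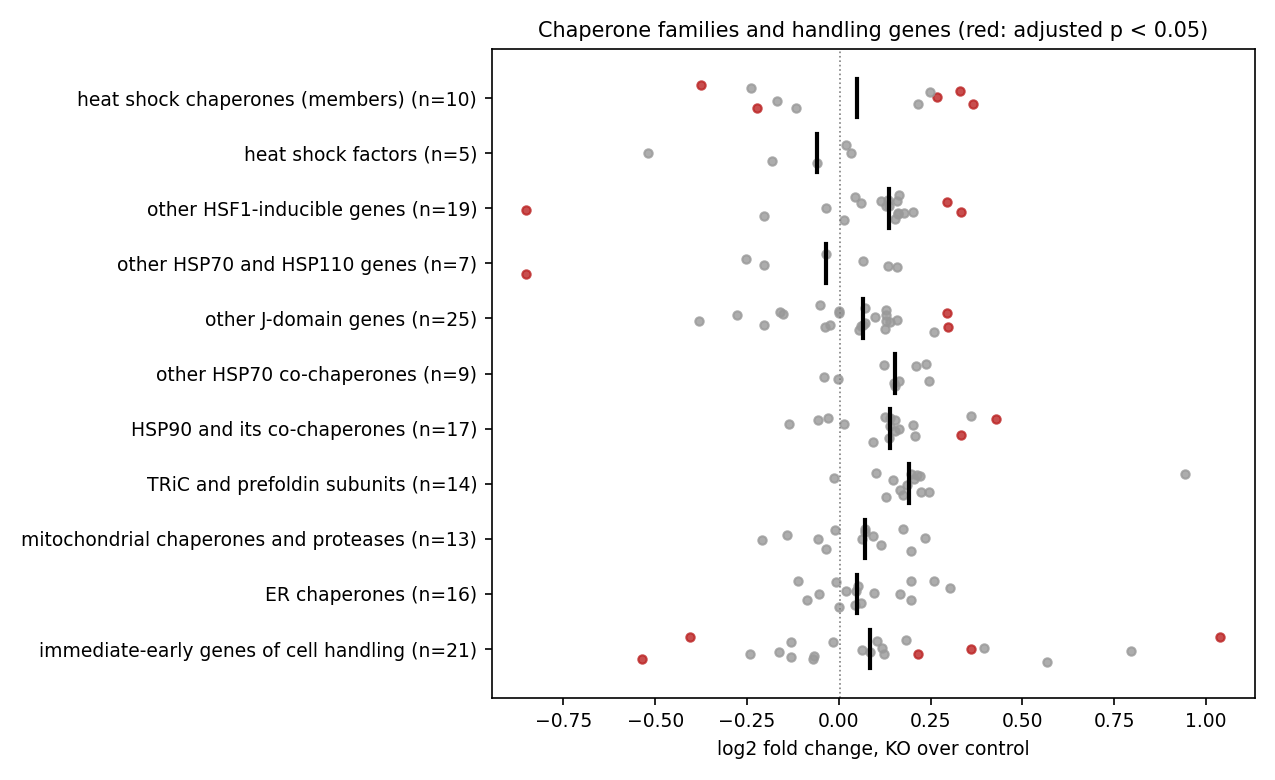
Each point is a tested gene at its log2 change of KO over control (horizontal axis), grouped by gene list, in red where the adjusted p was under 0.05; black bars mark the list medians and the dotted line the median of all genes. The TRiC and prefoldin points lie around their median of 0.19 apart from 1 at -0.01 and 1 at 0.94, the scarce PFDN5. The 10 chaperone genes run from -0.38 (BAG3) to 0.36 (HSP90AA1).

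Genes that are known to respond within minutes to handling and enzyme digestion of cells also moved in both directions. Of 21 tested immediate-early genes, 3 rose, 2 fell and 16 did not pass, with a median of 0.09. Over all tested genes 3.28% were called higher and 6.42% lower. Between 0 and 3 were higher and between 0 and 2 lower with 1 library left out. With the block 7 were higher and 5 lower, where 17.2% and 16.7% of all genes were. Without both replicate 3 libraries 4 were higher and 6 lower, where 11.7% and 13.7% of all genes were. DESeq2 called 5 higher and 2 lower. JUN, an AP-1 subunit, fell from 295, 291 and 331 to 195, 195 and 243 CPM (log2 change -0.54, SE 0.10, adjusted p = 0.0118 in edgeR), and SOCS3, an inhibitor of cytokine signalling, had -0.40 (SE 0.07, adjusted p = 0.0114 in edgeR). The phosphatase gene DUSP1 (0.36, SE 0.06, adjusted p = 0.00911 in edgeR), EGR3 (1.04, SE 0.23, adjusted p = 0.0239 in edgeR) and IER3 (0.22, SE 0.06, adjusted p = 0.0406 in edgeR) rose. Leaving out single libraries ended the calls of JUN and SOCS3 (KO replicate 1 or 2), DUSP1 (control replicate 1), EGR3 (control replicate 1 or 3, KO replicate 1 or 2) and IER3 (each except KO replicate 3), with edgeR adjusted p values between 0.0513 and 0.165. The summed level of the list was 5100 to 5420 CPM in control and 4950 to 5810 CPM in KO libraries. The part of handling in the chaperone differences was not tested.

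All 9 markers listed as present in the breast cancer line used, VIM and CD44 among them, had counts in every library. Of 8 markers listed as absent from it, ESR1, PGR, CDH1, KRT5 and KRT14 had at most 7 counts in a library. The other 3 were present: ERBB2 at 61.2 and 55.7 CPM on average, EPCAM at 17.3 to 22.5 CPM and GATA3 at 8.84 to 12.3 CPM per library. Of markers of other cells, 2 of 7 for fibroblasts, 2 of 6 for leukocytes and 2 of 5 for endothelium had more than 3 counts in every library. Their summed levels in control and KO libraries were 13.3 to 13.6 and 11.9 to 14 CPM for fibroblasts, 6.24 to 6.84 and 1.87 to 2.37 CPM for leukocytes, and 9.73 to 11 and 5.78 to 8.46 CPM for endothelium. The leukocyte sum came mostly from LYZ (log2 change -1.96, edgeR adjusted p = 3.41e-04), while PTPRC had at most 11 counts and CD3E was at 0 in every library. PECAM1 fell (log2 change -0.85, adjusted p = 0.0250 in edgeR), CDH5 and CLDN5 were at 0 in every library, and the part of these markers in the chaperone results was not tested.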

How the data were processed

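The authors deposited raw counts of reads per gene. The submitters' processing notes name STAR 2.7.9a, featureCounts, FastQC 0.11.9, R 4.1.1 and the build hg38. Not given in the sources used here are the gene annotation, the strand setting and the treatment of multi-mapping reads. Columns were assigned by the library names in the labels. Nothing in the labels says whether replicates are separate cultures, so the p-values reflect only variation among these samples, possibly technical.

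Genes were kept by filterByExpr and scaled with TMM factors. edgeR 4.0.16 (R 4.3.3) was fitted to all 14704 genes with group as the single term (glmQLFit, robust, and glmQLFTest), with Benjamini-Hochberg adjustment over all of them and a threshold of 0.05; alternatives were DESeq2 1.42.0, RLE factors, no filter, the replicate block, each library left out, both replicate 3 libraries left out and HSPA1A and HSPA1B summed. A count of 0 allows up to 3 counts, worth 0.128 to 0.165 CPM, for counting error only. The procedure was tested on simulated data. The genes and lists were chosen with earlier results of these data known. Named genes were the 10 chaperones, the ETV genes and, per list, up to 3 genes per direction with the smallest adjusted p, or the 2 most abundant where none passed; HSP90AB1, HSPA6, the small heat shock genes, HSF4 and the genes named by promoter match were added after their values were seen. Positions, exon lengths and shared windows are from GENCODE release 29, not necessarily the annotation behind the counts, and promoters from RefSeq.

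Both groups carry replicate numbers 1, 2 and 3. Deviations from the group means over 10032 genes correlated at 0.55, 0.45 and 0.83 in the pairs numbered 1, 2 and 3. As each was above 0.1, the numbers were used as a block in an alternative fit, while the main calls rest on group alone. This use of the numbers rests on the data and not on the labels. Deviations within a group cancel out, so a replicate 3 that stands apart in both groups raises the correlations among numbers 1 and 2. The crossed pairs of numbers 1 and 2 correlated as highly (0.59 and 0.58), so that replicate 3 alone was told apart. No 2 libraries matched within sampling noise (chi-square per degree of freedom of 4.19 or more).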

Additional observations from a re-analysis of the deposited data

How the results depend on the processing

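Scaling with RLE factors, DESeq2, the absence of a filter on low counts and the sum of HSPA1A and HSPA1B kept 3 of the chaperone genes higher, and all but the unfiltered fit (1 gene) kept 2 lower. With the replicate block, 5 were higher and 5 lower, and over all genes 2522 were higher and 2461 lower, against 483 and 944 in the group comparison, of whose 1427 genes 1426 were also called with the block, in the same direction. As the block hardly moves the fitted changes in this design, the shared direction is no separate check. Without both replicate 3 libraries 4 were higher and 3 lower, and over all genes 1731 and 2023. Leaving out 1 library at a time gave 0 to 4 higher and 0 to 1 lower chaperone genes, and over all genes 136 to 777 higher and 436 to 964 lower. Without control replicate 2, 0 were higher and 0 lower; without control replicate 1, or without either of KO replicates 1 and 2, 1 was higher and 0 lower; without control replicate 3 or KO replicate 3, 1 was lower. The cause was not tested. Direction held in all settings for HSP90AA1, HSPH1, HSPD1, HSPA8, BAG3, DNAJB1, HSPB1 and HSPA1A. With 1 library left out, the log2 change of HSPE1 ran from -0.4467 (without KO replicate 3) to 0.8757 and was -0.0032 without control replicate 2; that of HSPA1B ran from -0.1874 to 0.0205 (without control replicate 3). Among other genes, BAG6 ran from -0.0723 to 0.0065 (without KO replicate 3), ETV5 from -0.0182 (without control replicate 2) to 0.0435, HSBP1 from -0.1274 to 0.0582 (without control replicate 3) and HSF1 from -0.0079 (without KO replicate 1) to 0.1074, with -0.0025 without control replicate 3. The settings for list counts and for genes other than the chaperones were added after the data were seen. Depth limits HSPA6 and the small heat shock genes other than HSPB1, which were too low to test.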

Other observations

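HSPE1 was among the genes that set replicate 3 apart. Of 7896 genes with a mean of at least 20 CPM, its ratio of replicate 3 to the mean of replicates 1 and 2 ranked 4 from the top in control and 1 in KO libraries. By size of the shift in either direction it ranked 15 and 9, where the median size was 0.13 on the log2 scale in both groups. The genes with the highest ratios averaged over both groups, chosen after their values were seen, were RPL22 (2.69-fold in control, 2.89-fold in KO), HSPE1, PSENEN (2.78-fold and 2.53-fold), RPS15A (2.64-fold and 2.39-fold), ATP5MG (2.48-fold and 2.37-fold) and RPL17 (2.34-fold and 2.06-fold). RPL22, RPS15A and RPL17 encode ribosomal proteins, and ATP5MG encodes a subunit of the mitochondrial ATP synthase. HSPD1, whose product works with that of HSPE1, ranked 2518 and 2486 from the top.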
